A study of Mus musculus with 20 samples.

Results

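Border macrophage and MHC class II transcripts were followed in mouse hypothalamus across 20 RNA sequencing libraries. The set held 9 of the 54532 genes in the counts table, chosen by name: the class II genes Cd74, H2-Aa, H2-Ab1 and H2-Eb1, and the macrophage genes Mrc1, Lyve1, F13a1, Cd163 and Pf4. Each symbol matched a single Ensembl gene, and all 9 passed the filter on low counts in each comparison. All mice were male C57BL/6J. The 4 acute Gly-Low and 5 acute control libraries came from mice 4 months old after 1 week on the Gly-Low or the control diet. The 3 old Gly-Low and 4 old control libraries came from mice 25 months old after 5 months on those diets. The 4 young control libraries came from mice 3 months old after 1 week of control diet. Gly-Low is a diet meant to lower glycation, in which reactive products of sugar metabolism bind to proteins without an enzyme. Nothing in the labels says that libraries stem from different animals, so p-values measure the spread between libraries, which may be technical.

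Border macrophages are the resident macrophages of the meninges, the perivascular spaces and the choroid plexus, where they take up debris and antigen at the edge of the brain. MHC class II molecules are heterodimers of an alpha and a beta chain that show peptides from the endosome to helper T cells, and their genes are switched on together by the transactivator encoded by Ciita. Resting microglia carry little class II, so that in healthy brain much of it is known from border macrophages, dendritic cells and B cells. In bulk tissue, fewer cells of a type and less RNA per cell cannot be told apart.

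Promoters of class II genes are known for an X box and a Y box at a set distance, and those of many myeloid genes for PU boxes. The 250 bases before the RefSeq start (GRCm38.p6) are shown for a pair of class II genes because both carry the X and Y pair, and for Mrc1 because it held the most PU box letters among the members read. In the class II windows the capitals mark the X1 core GCAAC and the Y box ATTGG. In the Mrc1 window they mark TTCCTC, which is the PU box GAGGAA on the other strand.
H2-Aa, chr17:34287824-34288073, minus strand: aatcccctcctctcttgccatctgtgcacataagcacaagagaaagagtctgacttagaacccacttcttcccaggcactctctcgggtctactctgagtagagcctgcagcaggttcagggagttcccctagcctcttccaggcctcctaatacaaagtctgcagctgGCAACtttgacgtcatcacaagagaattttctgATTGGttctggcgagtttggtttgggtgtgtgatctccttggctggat
H2-Eb1, chr17:34305617-34305866, plus strand: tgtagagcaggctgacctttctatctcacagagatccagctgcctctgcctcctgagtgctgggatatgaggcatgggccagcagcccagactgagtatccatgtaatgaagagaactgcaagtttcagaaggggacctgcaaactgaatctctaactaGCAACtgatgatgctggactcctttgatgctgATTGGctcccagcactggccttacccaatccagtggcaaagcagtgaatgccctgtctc
Mrc1, chr2:14229164-14229413, plus strand: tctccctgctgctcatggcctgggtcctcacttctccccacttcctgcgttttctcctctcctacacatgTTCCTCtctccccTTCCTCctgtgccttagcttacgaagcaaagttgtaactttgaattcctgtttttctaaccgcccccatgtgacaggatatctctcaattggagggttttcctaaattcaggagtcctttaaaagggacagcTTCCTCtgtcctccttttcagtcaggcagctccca
The 2 motifs of the class II windows stood 28 bases apart in H2-Aa and 27 bases apart in H2-Eb1. GCAAC followed by ATTGG on the same strand with 15 to 40 bases between them occurred in 343 of 32851 windows of this length, 1.04%. On either strand, GCAAC occurred in 29.9% of windows, ATTGG in 33.8% and GAGGAA in 23.3%. The Mrc1 window held GAGGAA 3 times, that of Pf4 1 time, the 2 windows of F13a1 1 and 0 times, and that of Cd163 0 times. These matches describe letters in the windows and show no binding.

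The libraries held 15848372 to 27399753 counts, and all 10 hypothalamic markers looked for, such as Agrp, Pomc and Oxt, had counts in every group. Levels are given as CPM, the counts of a gene relative to the library total, scaled by TMM over the 20 libraries. Transcripts of the mitochondrial genome took 17.0% to 23.3% of the counts in acute Gly-Low, against 5.35% to 9.11% in acute control. Relative to the mean library, log2 CPM changed per doubling of transcript length (the length slope) by −0.43 to −0.23 in acute Gly-Low and by 0.14 to 0.23 in acute control. In the other groups the mitochondrial share was 4.94% to 7.36% in old Gly-Low, 5.54% to 8.14% in old control with 15.8% in old control 3, and 12.9% to 17.2% in young control with 5.73% in young control 4. The length slope was 0.08 to 0.29 in old Gly-Low, 0.04 to 0.16 in old control with −0.20 in old control 3, and −0.27 to −0.11 in young control with 0.22 in young control 4. Pituitary markers summed to 61130, 3686 and 32480 CPM in acute controls 2, 3 and 5, against 7.51 and 344 CPM in acute controls 1 and 4.

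The 4 class II genes kept the same order of group means. Acute Gly-Low was highest, followed by old Gly-Low, old control, acute control and young control. Neighbouring groups in that order overlapped for all 4 genes, except that H2-Aa in old Gly-Low lay above H2-Aa in old control. Each of the 5 macrophage genes was also highest in acute Gly-Low. Old Gly-Low came next for Mrc1, F13a1, Cd163 and Pf4, and for Lyve1 the acute controls did. Group means of the level per length, as CPM per kilobase of the median basic transcript, placed H2-Aa first of the 9 genes in all 5 groups. In young control that place rested on young control 3, where H2-Aa was at 14.7 CPM, against 1.94 to 3.97 CPM in the other young controls. H2-Aa averaged 19.1 ± 7.24 CPM per kilobase (SD, n = 4) and Cd74 12.7 ± 4.46 in acute Gly-Low. In acute control the same genes averaged 8.13 ± 4.71 and 6.08 ± 3.99 CPM per kilobase (SD, n = 5). In acute Gly-Low the macrophage genes ran from 7.24 ± 2.89 CPM per kilobase for Pf4 to 1.37 ± 0.282 for Cd163. In acute control they ran from 1.42 ± 0.670 for Pf4 to 0.289 ± 0.159 for Lyve1.

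**Figure D1:**
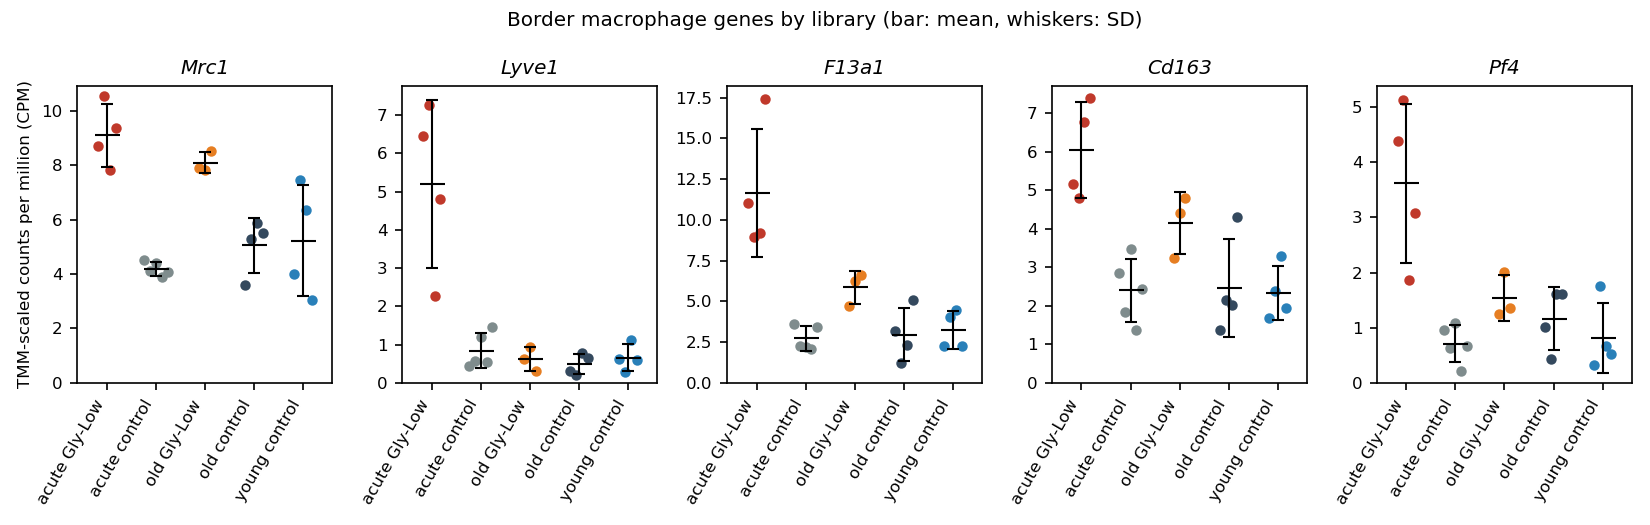
TMM-scaled CPM of the 5 macrophage genes in each library (points), with the group mean (bar) and SD (whiskers); groups are acute Gly-Low, acute control, old Gly-Low, old control and young control. For each gene every acute Gly-Low library lies above every acute control library.

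The first comparison set 1 week of Gly-Low against 1 week of control diet in young mice. The macrophage genes were all higher in acute Gly-Low, by 2.20-fold for Mrc1 to 6.27-fold for Lyve1. Of the class II genes, H2-Aa was 2.38-fold and Cd74 2.12-fold higher, while H2-Eb1 and H2-Ab1 did not pass. All 9 log2 fold changes were positive, as were 47.5% of those of all genes. In all, 7 of the 9 genes were higher and 0 lower, where 27.8% of the 17161 genes tested were higher, 30.5% lower and 58.3% changed in either direction. For 5 of the 9 genes the acute groups did not overlap, with acute Gly-Low higher, as for 23.0% of all genes. DESeq2 also called 7 members, with H2-Eb1 in place of Cd74, among 46.9% of genes.

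Mrc1 (ENSMUSG00000026712, chromosome 2, 14229392 to 14332057) encodes the mannose receptor CD206, which takes up glycoproteins. It had 8.70, 10.6, 7.82 and 9.38 CPM in acute Gly-Low, against 4.52, 4.10, 4.39, 3.90 and 4.07 CPM in acute control. The controls lay close together and all were below the lowest acute Gly-Low library. On the log2 scale the change was 1.13 ± 0.19 (SE) with an adjusted p of 0.000123.

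Cd163 (ENSMUSG00000008845, chromosome 6, 124304656 to 124330527) encodes the scavenger receptor for haptoglobin bound to haemoglobin. It had 5.17, 4.81, 6.77 and 7.40 CPM in acute Gly-Low, against 2.85, 1.84, 3.47, 1.38 and 2.45 CPM in acute control. The groups did not overlap, and the log2 fold change was 1.35 ± 0.29 (adjusted p = 0.00102). Markers of erythrocytes, the source of haemoglobin, had counts for 5 of 5 genes in each group. They summed to 556 to 1506 CPM in acute Gly-Low and 72.8 to 323 CPM in acute control. In old control they summed to 864 to 1803 CPM, where Cd163 averaged 2.46 CPM. In old Gly-Low they summed to 978 to 3113 CPM, with Cd163 at 4.15 CPM, and in young control to 63.5 to 373 CPM, with Cd163 at 2.34 CPM. The part of erythrocytes in the level of Cd163 was not tested.

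Lyve1 (ENSMUSG00000030787, chromosome 7, 110850607 to 110863239) encodes a hyaluronan receptor known from perivascular macrophages and lymphatic vessels. It had 6.45, 7.27, 2.27 and 4.81 CPM in acute Gly-Low, against 0.428, 0.565, 1.20, 0.532 and 1.45 CPM in acute control. Those levels rest on 50 to 133 counts per library in acute Gly-Low and 9 to 35 in acute control. Acute Gly-Low 3 was the lowest of its group and still above every control. Its log2 fold change of 2.65 ± 0.43 was the largest of the 9 genes in this comparison (adjusted p = 0.00011). Markers of lymphatic endothelium summed to 39.6 to 56.4 CPM in acute Gly-Low and 42.7 to 49.9 CPM in acute control, with counts for 4 of 5 genes. Ccl21a, the chemokine of lymphatic vessels, was at 0 in every library of all 5 groups. The part of lymphatic vessels in the level of Lyve1 was not tested.

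F13a1 (ENSMUSG00000039109, chromosome 13, 36867178 to 37050244) encodes the A subunit of coagulation factor XIII, a transglutaminase made by tissue macrophages and megakaryocytes. It had 11.0, 8.96, 9.18 and 17.4 CPM in acute Gly-Low, against 3.61, 2.26, 2.20, 2.09 and 3.44 CPM in acute control. Acute Gly-Low 4 stood highest, and the groups did not overlap. F13a1 changed by 2.11 ± 0.27 on the log2 scale (adjusted p = 1.18e-05), the smallest p among the members. The annotation places Gm30489 over its exons on the other strand, and without strand the reads of the pair cannot be told apart.

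Pf4 (ENSMUSG00000029373, chromosome 5, 90772435 to 90773383) encodes a chemokine of platelet granules that is also a marker of border macrophages. It had 4.38, 5.14, 1.86 and 3.08 CPM in acute Gly-Low, against 0.951, 0.640, 1.08, 0.213 and 0.664 CPM in acute control. The groups did not overlap, and the log2 fold change was 2.37 ± 0.44 (adjusted p = 0.000356). Platelet and megakaryocyte markers summed to 4.43 to 9.25 CPM in acute Gly-Low and 3.33 to 4.44 CPM in acute control. In acute Gly-Low they had counts for 5 of 8 genes, and the platelet receptor genes Gp1bb, Gp6 and Treml1 were at 0. In acute control 7 of 8 had counts, with Gp1bb at 0. Their part in the level of Pf4 was not tested.

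**Figure D2:**
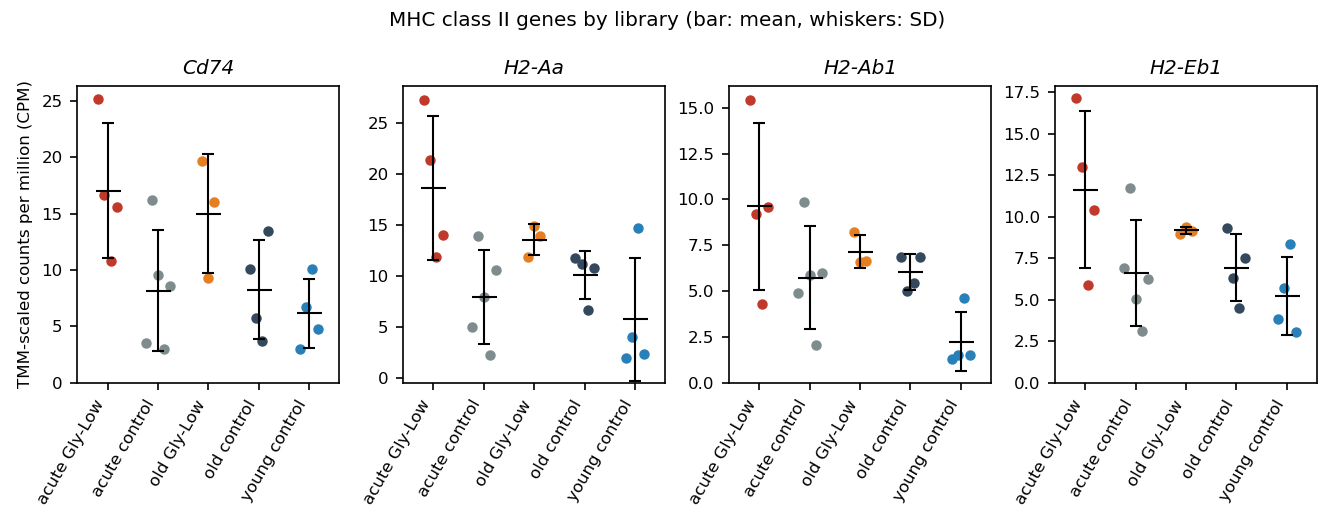
TMM-scaled CPM of the 4 class II genes in each library (points), with the group mean (bar) and SD (whiskers); groups are acute Gly-Low, acute control, old Gly-Low, old control and young control. The acute groups overlap for every gene, and young control 3 stands above the other young controls for each of them.

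H2-Aa (ENSMUSG00000036594, chromosome 17, 34282744 to 34287823), the alpha chain of the I-A molecule, had 27.3, 21.4, 11.8 and 14.0 CPM in acute Gly-Low, against 4.99, 14.0, 7.91, 2.23 and 10.6 CPM in acute control. Acute control 2 reached into the acute Gly-Low range. The log2 fold change was 1.25 ± 0.40 (adjusted p = 0.014), but leaving out acute Gly-Low 1 gave 1.00, which no longer passed (adjusted p = 0.0625), and neither did the fit on all 20 libraries (adjusted p = 0.0559; over the alternatives it ran from 0.000435 to 0.691).

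Cd74 (ENSMUSG00000024610, chromosome 18, 60803848 to 60812652) encodes the invariant chain, which escorts class II molecules to the endosome. It had 25.2, 16.6, 10.8 and 15.6 CPM in acute Gly-Low, against 3.52, 16.2, 9.58, 3.01 and 8.54 CPM in acute control. Acute control 2 was again above the lowest treated libraries. The log2 fold change was 1.08 ± 0.40 (adjusted p = 0.0307). Cd74 lost its call without acute Gly-Low 1 (adjusted p = 0.122), acute Gly-Low 2 (adjusted p = 0.0581), acute Gly-Low 4 (adjusted p = 0.0525) or acute control 4 (adjusted p = 0.0549), by DESeq2 (adjusted p = 0.0674) and in the fit on all 20 libraries (adjusted p = 0.0697; range over the alternatives 0.000133 to 0.29).

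H2-Eb1 (ENSMUSG00000060586, chromosome 17, 34305867 to 34316674), the beta chain of the I-E molecule, had 17.2, 13, 5.86 and 10.4 CPM in acute Gly-Low, against 6.89, 11.7, 5.03, 3.12 and 6.26 CPM in acute control. In C57BL/6 mice the alpha chain of I-E is not made, so that this beta chain has no partner of its own there. The groups overlapped and the log2 fold change of 0.83 ± 0.35 did not pass (adjusted p = 0.0518). It passed in 8 of the 18 alternatives, among them DESeq2 (adjusted p = 0.029), its size factors in edgeR (0.0434), no filter (0.0235), the filter of CPM 1 in 3 libraries (0.0487), without acute control 2 (0.00799) and without acute Gly-Low 3 (0.0161). The adjusted p ranged from 0.00799 to 0.797 over the alternatives.

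H2-Ab1 (ENSMUSG00000073421, chromosome 17, 34257689 to 34269419), the beta chain of I-A, had 15.5, 9.23, 4.32 and 9.56 CPM in acute Gly-Low, against 4.90, 9.86, 5.87, 2.06 and 5.97 CPM in acute control. Acute Gly-Low 3 lay below 4 of the 5 controls. The log2 fold change was 0.77 ± 0.39 (adjusted p = 0.0999). H2-Ab1 passed without acute Gly-Low 3 (1.02, adjusted p = 0.0308) and without acute control 2 (1.05, adjusted p = 0.0276), with a range over the alternatives of 0.0239 to 0.779.

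Summed over the 4 genes, class II stood at 51.8, 28.4 and 31.4 CPM in acute controls 2, 3 and 5, the libraries with the high pituitary sums, against 20.3 and 10.4 CPM in acute controls 1 and 4. The macrophage genes summed to 9.41, 12.3 and 12.1 CPM in the first 3 of these libraries and to 12.4 and 8.12 CPM in the others. Pituitary transcripts thus stood beside high class II but not beside high macrophage sums, and their part was not tested. Without acute controls 2, 3 and 5 only 2 acute controls remained, those with the lowest class II sums, so that larger class II folds follow from the choice and are given as a description. All 9 genes were then higher, among 19.7% of the 17586 genes then tested. The log2 fold changes were 2.35 for H2-Aa, 2.36 for Cd74, 1.20 for H2-Eb1 and 1.46 for H2-Ab1, with adjusted p from 0.000133 to 0.0338.

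**Figure D3:**
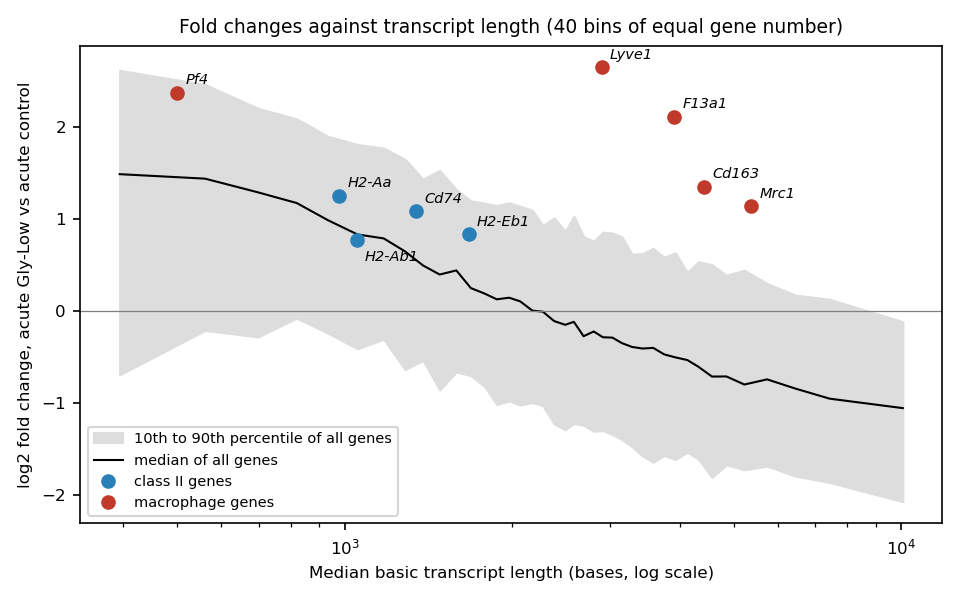
Log2 fold change of acute Gly-Low over acute control (vertical axis) against median basic transcript length in bases (horizontal axis, log scale), with the median and the 10th to 90th percentile of all genes in 40 length bins. Lyve1, F13a1, Cd163 and Mrc1 lie above the 90th percentile of genes of their length; Pf4 and the class II genes lie within the band.

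Short transcripts were raised as a class in acute Gly-Low, and the members differ widely in length. Of the genes in the shortest of 5 equal length classes, 61.6% were higher and 4.17% lower in acute Gly-Low. In the longest class, 6.97% were higher and 60.8% lower. H2-Aa (977 bases), H2-Ab1 (1050.5 bases) and Pf4 (499.5 bases) fell in the shortest class, with Cd74 (1345 bases) and H2-Eb1 (1669 bases) in the next. Lyve1 (2893 bases) fell in the middle class, F13a1 (3903 bases) in the one above it, and Cd163 (4423.5 bases) and Mrc1 (5374 bases) in the longest.

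Lyve1, F13a1, Cd163 and Mrc1 stood above genes of like length. The median log2 fold change of the length bin was −0.29 for Lyve1, −0.51 for F13a1, −0.61 for Cd163 and −0.80 for Mrc1. Each of these genes also exceeded the 90th percentile of its bin, which ran from 0.44 for Mrc1 to 0.86 for Lyve1. Pf4 did not, with a bin median of 1.44 and a 90th percentile of 2.46. The bin medians of the class II genes were 0.98 for H2-Aa, 0.83 for H2-Ab1, 0.49 for Cd74 and 0.25 for H2-Eb1, and none of the 4 genes exceeded its 90th percentile.

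With an offset for the length trend of each library, 4 of the 9 genes were higher, among 23.8% of all genes. Mrc1 was then at 1.88, F13a1 at 2.59, Cd163 at 1.93 and Lyve1 at 2.88 on the log2 scale. Pf4 (0.90, adjusted p = 0.0851; range over the alternatives 4.74e-07 to 0.35), H2-Aa (0.28, adjusted p = 0.562) and Cd74 (0.51, adjusted p = 0.29) lost their calls. H2-Ab1 turned to −0.14. When the length slope entered a fit on all 20 libraries as a covariate, 1 of the 9 genes was higher, among 11.2% of all genes. It was F13a1, at 2.02 (adjusted p = 0.0209; range 2.74e-13 to 0.0209). Lyve1 was at 2.20 (adjusted p = 0.0847), Cd163 at 1.39 (adjusted p = 0.0903), Pf4 at 1.13 (adjusted p = 0.35) and Mrc1 at 0.34 (adjusted p = 0.523). Cd74 was at 1.45 (adjusted p = 0.251) and H2-Aa at 0.66 (adjusted p = 0.691). The median over all genes was −0.07, and 0.17 with that covariate.

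Of the 13 other border macrophage markers 8 were tested, and 3 of these, Cbr2, Stab1 and Dab2, reached the minimum of the filter on low counts in all 9 acute libraries. Cbr2 was higher in acute Gly-Low, at 1.38 ± 0.39 (adjusted p = 0.0073), while Stab1 (−0.68 ± 0.42, adjusted p = 0.183) and Dab2 (−0.21 ± 0.16, adjusted p = 0.272) did not pass. The other 5 needed acute Gly-Low libraries to pass the filter, and 4 of them were called higher, so their calls are no support. Fcna, a ficolin, averaged 0.944 ± 0.313 CPM in acute Gly-Low and 0.119 ± 0.0770 CPM in acute control, where 0 libraries reached the minimum, as for Clec4n, the receptor dectin-2. The 5 that were not tested were Cd209f, Folr2, Siglec1, Timd4 and Ccl24. The whole list of 18 markers, members included, summed to 54.8 to 68.1 CPM in acute Gly-Low and 33.8 to 36.6 CPM in acute control. The 5 macrophage members alone summed to 27.9 to 42.1 CPM in acute Gly-Low and 8.12 to 12.4 CPM in acute control. The sum of the whole list is therefore no separate support.

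Of the 21 other genes of the class II pathway, 19 were tested, and 8 were higher and 3 lower, with a median of 0.14, against −0.07 over all genes. The shares over all genes were 27.8% higher and 30.5% lower, and 11 of 19 changed in either direction is close to the 58.3% of all genes. The cathepsins Ctss (1.07 ± 0.14, adjusted p = 1.71e-05) and Ctsl (0.71 ± 0.11, adjusted p = 8.99e-05), which trim the invariant chain, were higher. So were the peptide-loading gene H2-DMb1 (1.85 ± 0.28, adjusted p = 5.47e-05) and Nfyb (0.79 ± 0.12, adjusted p = 4.1e-05), a subunit of the Y box factor. The 3 lower genes, named after their values were seen, were Rfx5, which binds the X box (−0.92 ± 0.17, adjusted p = 0.000287), the protease gene Lgmn (−0.67 ± 0.12, adjusted p = 0.000349) and the Y box subunit Nfyc (−0.38 ± 0.14, adjusted p = 0.0295). Ciita, the transactivator, and H2-Oa did not pass the filter on low counts here. Of 12 genes of interferon gamma and macrophage growth signals, 11 were tested. Ifngr2, a receptor chain for interferon gamma, was higher at 0.70 ± 0.13 (adjusted p = 0.000409), and 4 were lower, with a list median of −0.34. Jak1 was at −1.26 ± 0.13 (adjusted p = 2.36e-06), Csf1, a macrophage growth factor, at −1.40 ± 0.32 (adjusted p = 0.00185) and its receptor Csf1r at −1.94 ± 0.22 (adjusted p = 3.49e-06).

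Of 12 markers of microglia, the macrophages of the brain tissue itself, 7 were higher and 3 lower in acute Gly-Low, with a median of 0.46, where 27.8% of all genes were higher and 30.5% lower. Gpr34 (1.89 ± 0.26, adjusted p = 2.17e-05), Siglech (1.35 ± 0.17, adjusted p = 1.38e-05) and P2ry12 (1.05 ± 0.15, adjusted p = 4e-05) were higher, and Csf1r, given above, was lower. The list summed to 357 to 391 CPM in acute Gly-Low and 288 to 358 CPM in acute control.

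Sums of markers of other cell types, which were not tested, are given beside the members. Meningeal fibroblast markers, with counts for 10 of 10 genes in each group, summed to 209 to 397 CPM in acute Gly-Low and 71.1 to 182 CPM in acute control. Monocyte markers summed to 1.68 to 6.63 CPM in acute Gly-Low and 0.780 to 2.07 CPM in acute control, with counts for 5 of 5 genes. Neutrophil markers summed to 1.73 to 16.7 CPM in acute Gly-Low and 0.428 to 2.90 CPM in acute control, also with counts for 5 of 5 genes. T cell markers summed to 6.39 to 9.82 CPM in acute Gly-Low and 4.22 to 5.24 CPM in acute control, where Cd8a was at 0. B cell markers, which mark another class II cell, summed to 12.4 to 16.6 CPM in acute Gly-Low and 8.31 to 13.5 CPM in acute control. Dendritic cell markers, with counts for 7 of 7 genes, summed to 11.0 to 15.7 CPM in acute Gly-Low and 16.0 to 19.5 CPM in acute control. The ranges of the acute groups overlapped for the monocyte, neutrophil and B cell sums and not for the meningeal fibroblast, T cell and dendritic cell sums. The part of these cells in the results was not tested.

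**Figure D4:**
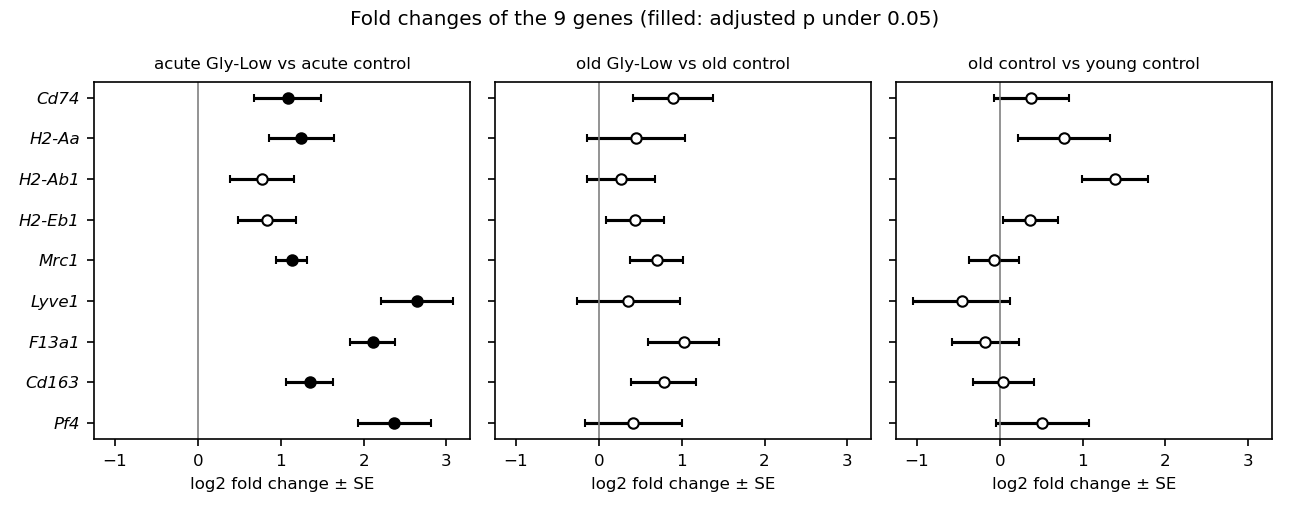
Log2 fold change with its SE for each of the 9 genes (rows) in each comparison (panels); filled points passed an adjusted p of 0.05. In the acute comparison 7 genes are filled, and in the age and old diet comparisons 0.

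The age comparison set old against young control mice. Of the 9 genes, 0 passed by edgeR, where 0.0328% of 18281 genes were called. H2-Ab1 alone had an unadjusted p under 0.05, with higher levels in old control, as did 3.79% of all genes. By DESeq2, which called 1.43% of genes, H2-Ab1 was the 1 member called among the 8 with an adjusted p, since H2-Aa was given none.

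H2-Ab1 had 6.89, 5.02, 5.44 and 6.88 CPM in old control, against 1.32, 1.52, 4.65 and 1.51 CPM in young control. Young control 3 stood apart from the other young libraries, and all 4 lay below the lowest old control. Such non-overlap with higher old controls held for 1 of the 9 genes and for 2.77% of all genes. edgeR gave a log2 fold change of 1.39 ± 0.39 (unadjusted p = 0.00461, adjusted p = 0.257), and DESeq2 gave 1.42 (adjusted p = 0.0337; over the alternatives it ran from 0.0337 to 0.969). With acute control as the young group H2-Ab1 was at 0.081 on the log2 scale (adjusted p = 0.969). That group held acute controls 2, 3 and 5, which had the high pituitary sums and the highest class II sums of their group. With young control as the reference, leaving out young control 3 gave 2.04 (adjusted p = 0.0535).

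H2-Aa, its partner chain, had 11.8, 11.2, 6.65 and 10.8 CPM in old control, against 1.94, 3.97, 14.7 and 2.29 CPM in young control. Young control 3 held the highest level of all 8 libraries, so the groups overlapped (0.78 ± 0.56, adjusted p = 0.742). Cd74 had 10.1, 5.78, 3.67 and 13.4 CPM in old control, against 3.01, 6.71, 10.1 and 4.80 CPM in young control. The ranges of Cd74 overlapped widely (0.38 ± 0.45, adjusted p = 0.838). H2-Eb1 ran from 4.52 to 9.30 CPM in old control and from 3.06 to 8.33 CPM in young control (0.37 ± 0.33, adjusted p = 0.796).

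The macrophage genes showed no common direction with age. Mrc1 ran from 3.60 to 5.89 CPM in old control and from 3.06 to 7.47 CPM in young control. F13a1 ran from 1.24 to 5.08 CPM in old control and from 2.25 to 4.48 CPM in young control. Both had small negative log2 fold changes, −0.06 ± 0.30 for Mrc1 and −0.17 ± 0.41 for F13a1. Lyve1 was at −0.46 ± 0.58, Cd163 at 0.04 ± 0.37 and Pf4 at 0.51 ± 0.56, and their adjusted p-values lay between 0.828 and 0.98.

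Young control 3 was the library with the highest class II sum of its group, 37.8 CPM, against 10.1, 17.9 and 11.7 CPM in the other young controls. It also held the highest meningeal fibroblast sum, 239 CPM. Meningeal fibroblast markers ran from 66.1 to 84.3 CPM in old control and from 52.6 to 239 CPM in young control. B cell markers summed to 17.9 to 27.3 CPM in old control and 7.65 to 10.9 CPM in young control. Dendritic cell markers summed to 17.5 to 25.2 CPM in old control and 13.6 to 19.8 CPM in young control, where Xcr1 was at 0. T cell markers summed to 5.28 to 10.4 CPM in old control and 8.599 to 17.0 CPM in young control. Erythrocyte markers summed to 864 to 1803 CPM in old control and 63.5 to 373 CPM in young control, with young control 3 highest of the young, and choroid plexus markers to 51.26 to 66.55 CPM in old control and 33.9 to 51.08 CPM in young control. The B cell, erythrocyte and choroid plexus sums did not overlap. The part of these cells was not tested. Without young control 2 and old control 3, which had the lowest length slopes of the old and young groups, H2-Ab1 was at 1.30 (adjusted p = 0.41).

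By edgeR, 0 genes of the class II pathway list (21 tested, median 0.13), the other border macrophage list (8 tested, median 0.44), the microglia list (12 tested, median 0.58) or the interferon gamma and growth list (11 tested, median 0.29) passed with age, against a median of 0.02 over all genes. The smallest p of each list belonged to Ctss (1.47 ± 0.25, adjusted p = 0.095) and Cd86 (1.49 ± 0.36, adjusted p = 0.177), Ms4a7 (1.99 ± 0.43, adjusted p = 0.136) and Dab2 (−0.64 ± 0.21, adjusted p = 0.35), Cx3cr1 (0.64 ± 0.17, adjusted p = 0.233) and Siglech (0.66 ± 0.21, adjusted p = 0.318), and Csf1r (0.83 ± 0.32, adjusted p = 0.452) and Spi1 (0.63 ± 0.27, adjusted p = 0.512). Microglia markers summed to 426 to 498 CPM in old control and 313 to 351 CPM in young control, also without overlap. Their part was not tested.

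The old diet comparison asks what 5 months of Gly-Low changed in old mice. It shares the old control libraries with the age comparison. By edgeR 0 of the 9 genes passed, where 0.0% of 18281 genes were called, and by DESeq2 0 of the 8 with an adjusted p, H2-Aa having none, where 0.00639% were. All 9 log2 fold changes were positive, as were 53.3% of those of all genes. At an unadjusted p under 0.05, 1 of the 9 genes, F13a1, was higher in old Gly-Low, as were 1.29% of all genes. For H2-Aa and Mrc1, 2 of the 9 genes, old Gly-Low lay above old control with no overlap, as for 3.02% of all genes.

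F13a1 had 4.68, 6.26 and 6.61 CPM in old Gly-Low, against 3.16, 1.24, 2.30 and 5.08 CPM in old control. Old control 4 was the only control inside the old Gly-Low range. The log2 fold change was 1.02 ± 0.43 (unadjusted p = 0.0362, adjusted p = 0.953). Mrc1 had 7.90, 7.84 and 8.54 CPM in old Gly-Low, against 3.60, 5.29, 5.89 and 5.51 CPM in old control. The old Gly-Low libraries of Mrc1 lay close together above all controls (0.70 ± 0.32, adjusted p = 0.953). Cd163 had 3.25, 4.40 and 4.79 CPM in old Gly-Low, against 1.36, 2.16, 2.02 and 4.32 CPM in old control (0.78 ± 0.39, adjusted p = 0.953).

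Among the class II genes Cd74 had 19.7, 9.27 and 16.0 CPM in old Gly-Low, against 10.1, 5.78, 3.67 and 13.4 CPM in old control. Its ranges overlapped and its log2 fold change was the largest of the 4, at 0.89 ± 0.48 (adjusted p = 0.953). H2-Aa had 11.9, 14.9 and 13.9 CPM in old Gly-Low, against 11.8, 11.2, 6.65 and 10.8 CPM in old control. The gap between the lowest old Gly-Low and the highest old control library of H2-Aa was small (0.45 ± 0.59, adjusted p = 0.953). H2-Eb1 ran from 8.98 to 9.39 CPM in old Gly-Low and from 4.52 to 9.30 CPM in old control, and the log2 fold change was 0.44 ± 0.35. H2-Ab1 ran from 6.61 to 8.21 CPM in old Gly-Low and from 5.02 to 6.89 CPM in old control (0.26 ± 0.41). Lyve1 ran from 0.315 to 0.927 CPM in old Gly-Low and from 0.216 to 0.766 CPM in old control (0.36 ± 0.62), which rests on 9 to 24 counts in old Gly-Low and 4 to 19 in old control. Pf4 ran from 1.24 to 2.01 CPM in old Gly-Low and from 0.432 to 1.61 CPM in old control (0.42 ± 0.59). None of these 4 genes passed.

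Meningeal fibroblast markers, whose sum was not tested, summed to 119 to 155 CPM in old Gly-Low and 66.1 to 84.3 CPM in old control, with counts for 10 of 10 genes. Lymphatic endothelium markers summed to 55.5 to 63.1 CPM in old Gly-Low and 42.7 to 49.0 CPM in old control, and choroid plexus markers to 66.56 to 69.72 CPM in old Gly-Low and 51.26 to 66.55 CPM in old control. The ranges did not overlap for any of these 3 sums. The 18 border macrophage markers, members included, summed to 46.3 to 52.6 CPM in old Gly-Low and 28.2 to 45.1 CPM in old control. The 5 macrophage members alone summed to 17.7 to 21.6 CPM in old Gly-Low and 9.34 to 17.2 CPM in old control. The sum of the 18 is therefore no separate support. The part of these cells in the levels of the 9 genes was not tested. By edgeR, 0 genes passed in the class II pathway list (median −0.10), the other border macrophage list (median 0.46), the microglia list (median −0.09) and the interferon gamma and growth list (median 0.11), against a median of 0.03 over all genes. The smallest p in the class II pathway were those of H2-Oa (−1.89 ± 0.67) and Nfya (0.54 ± 0.22), and among the border markers those of Cbr2 (1.20 ± 0.51) and Dab2 (0.44 ± 0.22). In the other lists they were those of Fcrls (−0.52 ± 0.22) and Cx3cr1 (0.41 ± 0.18) in microglia and of Jak1 (0.16 ± 0.13) and Ifngr2 (−0.20 ± 0.17) among the signals. Each of these 8 genes had an adjusted p of 0.953.

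The diet effect was set against that of the acute arm in 1 fit on all 20 libraries. The difference, old minus acute, was negative for all 9 genes, while it was positive for 52.8% of all genes. It passed for Lyve1 alone, at −2.30 ± 0.76 (adjusted p = 0.0244), where 19.2% of 19061 genes passed with a lower and 36.0% with any difference. Pf4 (−1.96 ± 0.76, adjusted p = 0.0502) and F13a1 (−1.11 ± 0.52, adjusted p = 0.101) did not pass, and the adjusted p of the other 6 genes ran from 0.324 to 0.846. The call of Lyve1 was lost without acute Gly-Low 2 (adjusted p = 0.0522), old control 3 (0.064), old Gly-Low 1 (0.0514) or old Gly-Low 3 (0.0718), and with the length slope as a covariate (−1.75, adjusted p = 0.417; range over the alternatives 0.00881 to 0.417). By DESeq2 both Lyve1 and Pf4 passed, among 38.4% of genes.

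Old Gly-Low was also set against young control, with which the age comparison shares its young libraries. By edgeR 0 of the 9 genes passed, where 0.00547% of genes were called, and by DESeq2 1 of the 8 with an adjusted p, H2-Aa again having none, where 1.86% were. At an unadjusted p under 0.05, H2-Ab1, Cd74 and H2-Eb1 were higher in old Gly-Low, 3 of 9 genes, as were 6.23% of all genes. H2-Ab1 had 8.21, 6.61 and 6.65 CPM in old Gly-Low, against 1.32, 1.52, 4.65 and 1.51 CPM in young control. All old Gly-Low libraries lay above all young ones (1.66 ± 0.42, adjusted p = 0.238). It passed by DESeq2 (adjusted p = 0.0155) and without young control 3 by edgeR (2.31, adjusted p = 0.0469; range over the alternatives 0.0155 to 0.509). Non-overlap with higher old Gly-Low libraries held for 4 of the 9 genes, H2-Ab1, H2-Eb1, Mrc1 and F13a1, and for 6.07% of all genes. Marker sums that did not overlap either were those of B cells (15.6 to 21.3 CPM in old Gly-Low and 7.65 to 10.9 CPM in young control) and dendritic cells (22.1 to 25.7 CPM in old Gly-Low and 13.6 to 19.8 CPM in young control). The same held for choroid plexus (66.56 to 69.72 CPM in old Gly-Low and 33.9 to 51.08 CPM in young control) and erythrocyte markers (978 to 3113 CPM in old Gly-Low and 63.5 to 373 CPM in young control), and for microglia (433 to 490 CPM in old Gly-Low and 313 to 351 CPM in young control) and lymphatic endothelium (55.5 to 63.1 CPM in old Gly-Low and 44.2 to 51.4 CPM in young control). Platelet and megakaryocyte markers summed to 5.14 to 7.65 CPM in old Gly-Low and 2.51 to 5.06 CPM in young control, again without overlap, and T cell markers were lower without overlap, at 5.61 to 7.73 CPM in old Gly-Low and 8.599 to 17.0 CPM in young control. The mitochondrial share was 4.94% to 7.36% in old Gly-Low, below that of young controls 1, 2 and 3. Their part in the result was not tested.

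The 2 groups of young mice on the control diet were also compared. H2-Ab1 had 4.90, 9.86, 5.87, 2.06 and 5.97 CPM in acute control, against 1.32, 1.52, 4.65 and 1.51 CPM in young control. Acute control 4 and young control 3 brought the ranges to overlap. The log2 fold change was 1.34 ± 0.43 (unadjusted p = 0.00601, adjusted p = 0.0755). Without acute controls 2, 3 and 5, which had the high pituitary sums, it was 0.62 (adjusted p = 0.668). The acute controls that remained were those with the lowest class II sums, so the smaller fold follows from the choice and is a description. T cell markers summed to 4.22 to 5.24 CPM in acute control and 8.599 to 17.0 CPM in young control, and mitochondrial transcripts took 5.35% to 9.11% of counts in acute control and more than that in young controls 1, 2 and 3. Their part in the level of H2-Ab1 was not tested. By edgeR 0 of the 9 genes passed, where 5.29% of genes were called, and H2-Ab1 was the 1 member with an unadjusted p under 0.05, as were 7.23% of genes with higher levels in acute control. It was also the 1 member called by DESeq2 (adjusted p = 0.0237), where 8.99% of genes were. It also passed without acute control 4 (adjusted p = 0.0486; range over the alternatives 0.0237 to 0.668). The other 8 genes had log2 fold changes from −0.32 for Mrc1 to 0.46 for H2-Aa, with adjusted p from 0.471 to 0.969.

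**Figure D5:**
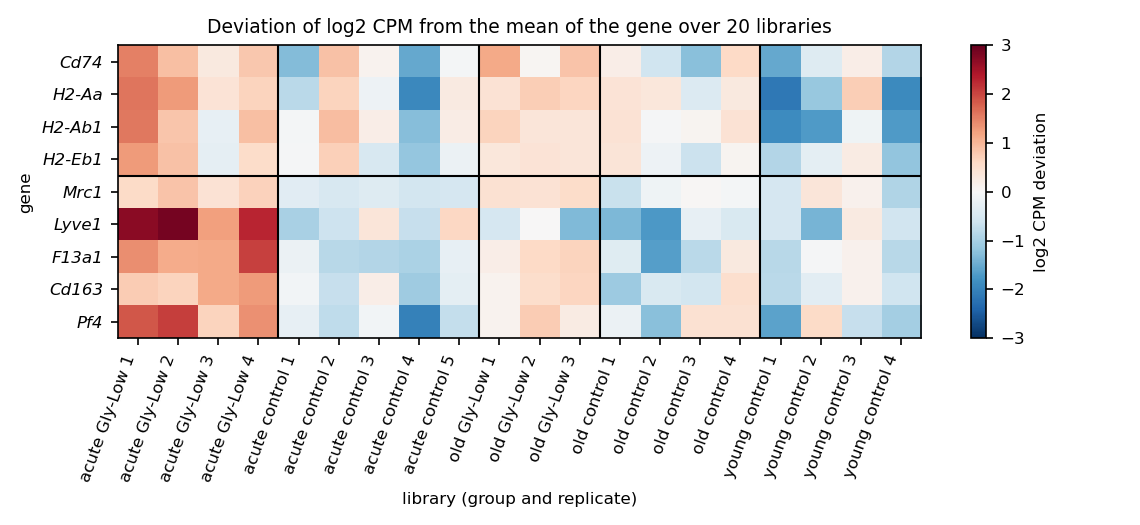
Deviation of log2 CPM from the mean of each gene over 20 libraries (colour) for the 9 genes (rows) in each library (columns, by group and replicate). Acute Gly-Low libraries are above the mean for all macrophage genes, while H2-Ab1 and H2-Eb1 are below it in acute Gly-Low 3. In acute control, each class II gene lies on both sides of the mean, as do Lyve1 and Cd163. Mrc1, F13a1 and Pf4 lie below the mean in every acute control.

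Other genes shared these patterns over the 20 libraries. Likeness was taken as Pearson's r across libraries between log2 CPM and the mean standardised level of the class II or the macrophage genes, over 15483 protein-coding genes. It is given as a description, and the points share depth and library make-up. Closest to the class II genes were Cybb, a subunit of the phagocyte oxidase (r = 0.875), Efemp1, a matrix protein (r = 0.851), and Slc9a2 (r = 0.83). Lyz2, the lysozyme of macrophages (r = 0.79), and Pde5a (r = 0.788) followed. With the group means removed, the closest were Kctd11 (r = 0.892), the collagen processing gene Pcolce (r = 0.88), Efemp1 (r = 0.88), the proteoglycan gene Bgn (r = 0.871) and Dapl1 (r = 0.819).

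Closest to the macrophage genes were Tnfrsf11b, which encodes osteoprotegerin (r = 0.931), the sulfotransferase Sult1a1 (r = 0.929), the matrix protein Mgp (r = 0.929), Anxa1 (r = 0.927) and Ccn3 (r = 0.922). With the group means removed they were Fxyd5 (r = 0.907), Mgp (r = 0.881), Sult1a1 (r = 0.848), the transcription factor gene Tbx18 (r = 0.839) and Ifi209 (r = 0.822). Mgp ran from 8.89 to 204 CPM over the 20 libraries and Cybb from 0.461 to 5.31 CPM.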

How the data were processed

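RNA was poly-A selected and made into non-directional libraries, per the labels' protocols. The deposited values are raw counts of reads per gene; build GRCm38 and the tools featureCounts 1.5.0-p3, HISAT2 2.0.5 and DESeq2 1.20.0 are listed without roles in the submitters' processing notes. The annotation release and strand setting used for counting were not given in the sources used here. Of 54532 genes 54495 matched GENCODE M21, which gave symbols, positions and lengths. Low counts were removed with filterByExpr, libraries scaled with TMM, and each comparison tested in R 4.3.3 with edgeR 4.0.16 (quasi-likelihood F test), with Benjamini-Hochberg adjustment over all genes tested and a threshold of 0.05. Adjusted p-values are from edgeR unless DESeq2 1.42.0 is named. The acute comparison was fitted on its 9 libraries, those of old and young mice on 11, and the young groups and the difference between arms on all 20. The pipeline was tested on data simulated for the acute, age and old diet comparisons. The simulated libraries shared a common profile apart from the changes put in. They lacked the length trend seen here, so its effect was not tested there. The level of 1 further marker gene is not reported here. The members, gene lists and tests were chosen with earlier results of these data known. Besides the 9 members, up to 4 genes of each list with the smallest p among those that passed were named, or up to 2 where none passed; the 3 lower class II pathway genes of the acute comparison and Stab1 and Dab2 there were added after their values were seen. Promoter letters are from RefSeq, GRCm38.p6. Members Cd163, F13a1, H2-Aa, H2-Eb1, Mrc1 and Pf4 were read there, with 2 starts for F13a1.

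Alternatives were DESeq2, its size factors in edgeR, other filters, other sets of libraries, a replicate block, a length offset over 40 bins and the length slope as a covariate. Same-numbered old Gly-Low and old control libraries deviated together (correlations 0.417, 0.272 and 0.253), though none of them correlated best with its own number. The numbers are those in the titles, which differ from those in the table's header for old Gly-Low, so that no pairing of libraries is established. Counts were lowest for Lyve1 and Pf4, where counting error weighs most.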

Additional observations from a re-analysis of the deposited data

Results flagged for a closer look

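In 2 of the 36 pairs of a gene and a group of 4 or 5 libraries, 1 library lay far from the others of its group, and chance gives about 1 in 20. Both were in the same library and so are not independent. In young control 3 H2-Aa was at 14.73 CPM, against 1.94 to 3.97 CPM in the other young controls, and H2-Ab1 at 4.646 CPM, against 1.32 to 1.52 CPM. The difference in diet effect on Lyve1 between the arms passed when tested as an interaction, at −2.30 (old minus acute, adjusted p = 0.0244). The same test passed for 36.0% of all genes. Lyve1 lost its call in 5 of the 25 alternatives, with an adjusted p of up to 0.417. Age and time on the diet both differ between the arms and cannot be told apart.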

How the results depend on the processing

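Of 993 values of the 9 genes under the alternatives, 895 kept their direction and side of the threshold, 22 lost the threshold, 29 gained it and 47 changed sign, all 47 in values that did not pass in either setting. The cause was not tested. DESeq2 called 301 genes for age, 2 for the old diet, 379 for old Gly-Low against young control and 1652 for the young groups, and 1 member (H2-Ab1) for age, 1 for old Gly-Low against young control and 1 for the young groups. No filter gave 11 genes for age and 9 for old Gly-Low against young control. The length offset gave 19, 17, 241 and 4426 genes for age, old Gly-Low against young control, the young groups and the arm difference. Members called with that offset were 4 in the acute comparison, 1 for the young groups (H2-Ab1) and 3 for the arm difference (Mrc1, F13a1 and Lyve1). The slope covariate gave 3806, 413, 60, 0 and 1715 genes for the acute comparison, age, old Gly-Low against young control, the young groups and the arm difference, with 1 member (F13a1) in the acute comparison and 0 for the arm difference. It gave a median of −0.19 over all genes in the arm difference, against 0.10 in the fit without it. All 20 libraries in the fit gave 120 genes for age and 159 for old Gly-Low against young control, and the acute controls as young group 70 for age. The fit on only the groups compared gave 3 genes for the young groups. Without young control 2 and old control 3, 2 genes were called for age and 0 for old Gly-Low against young control. Without acute controls 2, 3 and 5, 0 were called for the young groups and 4506 for the arm difference. Members called for the arm difference were 2 (Pf4 and Lyve1) by DESeq2, 2 with its size factors, 2 with a filter of CPM 1 in 3 libraries and 2 with only the groups compared. With the replicate block 2973 genes and 1 member (H2-Ab1) were called for old Gly-Low against young control and 0 genes for the young groups. Same-numbered libraries are known to share only a number, in the old diet comparison too. Outside that comparison their correlations ran from −0.05 to 0.6, and not every library correlated best with its own number. With the block H2-Eb1 also passed in the acute comparison (0.87, adjusted p = 0.0338, range 0.00799 to 0.797). In the old diet comparison the block changed no call of a member.

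Signs changed as follows. With the length offset, H2-Ab1 was at −0.14 in the acute comparison, Cd163 at −0.082 for age and −0.27 for the young groups, Pf4 at 0.54 for the young groups, and H2-Aa, Cd74 and H2-Ab1 at 0.21, 0.45 and 0.53 for the arm difference. With the slope covariate, Mrc1 was at 0.18 for age, 0.12 for the young groups and 0.58 for the arm difference, Lyve1 at 0.072 for old Gly-Low against young control, Cd163 at −0.0017 and Pf4 at 0.48 for the young groups, and H2-Eb1 at 0.21 for the arm difference. With the replicate block, Cd163 was at −0.024 for age and Lyve1 at 0.16 for old Gly-Low against young control. Without young control 2 and old control 3, Mrc1 was at 0.081 and F13a1 at 0.060 for age, and with the acute controls as young group at 0.27 and 0.12. Without acute controls 2, 3 and 5, H2-Aa, Cd74, H2-Eb1, Cd163 and Lyve1 were at −0.67, −0.92, −0.066, −0.15 and −0.46 for the young groups. The acute controls that remained there were those with the lowest class II sums.

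Leaving out 1 library at a time, Mrc1 ran from −0.26 to 0.15, F13a1 from −0.55 to 0.070 and Cd163 from −0.35 to 0.27 for age, Lyve1 from −0.051 to 0.68 for the old diet and from −0.51 to 0.30 for old Gly-Low against young control. Cd74 ran from −0.0023 to 0.76, Cd163 from −0.14 to 0.25 and Pf4 from −0.46 to 0.47 for the young groups, and Cd74 from −0.61 to 0.14 for the arm difference. The genes called then ran from 9179 to 10794 in the acute comparison, 0 to 6 for age, 0 to 329 for old Gly-Low against young control, 0 to 3957 for the young groups and 5206 to 7561 for the arm difference, and were 0 throughout for the old diet. Members called ran from 5 to 9 in the acute comparison, from 0 to 1 for old Gly-Low against young control and for the young groups, and from 0 to 3 for the arm difference, and were 0 throughout for age and the old diet. The lowest counts per library were 4 for Lyve1 and 5 for Pf4; counting error was not separated from the spread between libraries.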
